A study of Mus musculus with 10 samples.

Results

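The genes described here are 40 genes of the nucleolus and of ribosome production, chosen by name as a pathway that MYC is known to drive. Of these, 39 had a named probe set and were measured, among 24704 genes in all; Npm3 was not analysed here. The data are 10 Affymetrix arrays. The cells were isolated from liver as LSEC (liver sinusoidal endothelial cells), which line the capillary-like sinusoids and bear open pores, from female C57BL/6N mice aged 10 weeks when feeding began. The CDAA group (5 arrays) received for 10 weeks a diet with 31% of calories from fat and 1% cholesterol, and the Std group (5 arrays) received a control diet. In liver research CDAA usually means choline-deficient and amino acid-defined, and the diet is used to produce fibrotic fatty liver. Cells of 3 mice were combined for every array after binding to magnetic beads against CD146, an endothelial surface protein, so an array is a pool and not a single animal. A label field gives the treatment as 10 days where all other labels give 10 weeks, and the series' design text speaks of Gata4 knockout mice, which no sample label names and which are not analysed here.

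Ribosomes are made in the nucleolus. RNA polymerase I transcribes the long precursor of ribosomal RNA. Small nucleolar ribonucleoproteins (snoRNPs) guide methylation or pseudouridylation at sites of this precursor, and large processing complexes cut and fold it into the small and large subunits. MYC, a transcription factor that pairs with MAX on the E-box letters CACGTG, is a well known driver of many of these genes, and their output rises in growing and dividing cells.

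Values are log2 signals normalised by RMA (robust multi-array averaging) before deposit, so a difference of 1 is a doubling of signal. The median of each array was 3.89. All 39 genes had a mean signal above that of the typical gene on the array, with a mean over arrays at the 54.6th to 97.6th percentile of all genes. Changes are CDAA minus Std. "Rose" and "fell" are used of genes that passed a Benjamini-Hochberg adjusted p of 0.05 over all 24704 genes with limma, two-sided, 5 pools against 5.

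Markers of other liver cells differed between the isolates of the 2 diets. LSEC markers were well represented, with a list mean of 10.18 to 11.23 in CDAA arrays and 11.65 to 11.84 in Std arrays, and 9 of 11 fell with CDAA. Of 12 pan-endothelial markers 9 fell, with list means of 10.06 to 11.14 in CDAA and 11.37 to 11.52 in Std. Recruited macrophage markers rose for 8 of 9 genes (list mean 8.26 to 9.74 in CDAA, 5.19 to 6.03 in Std), bile duct epithelium markers for 7 of 7 (7.31 to 8.17 in CDAA, 4.51 to 5.49 in Std) and stellate cell and fibroblast markers for 5 of 9 (6.38 to 8.13 in CDAA, 5.52 to 6.11 in Std). Kupffer cell markers, of the resident macrophages, fell for 6 of 8 (7.23 to 8.01 in CDAA, 8.33 to 9.42 in Std). The largest changes were 7.31 for Gpnmb and 6.80 for Mmp12 (macrophage), 3.64 for Krt18 and 3.48 for Krt8 (bile duct), 3.43 for Col1a1 (stellate) and -3.73 for Timd4 and Cd163 (Kupffer). Hepatocyte markers gave 4 rises and 2 falls of 9, B and plasma cell markers 1 rise of 5, and neither 8 T and NK cell nor 8 neutrophil markers held a call by limma, nor an unadjusted p below 0.05. Among all genes, 7.49% rose and 9.13% fell. CDAA 1 and CDAA 3 held the highest macrophage means and the lowest pan-endothelial means. Std 3 had a neutrophil marker mean of 10.01, against 4.14 to 4.56 in the other Std arrays and 5.70 to 6.65 in CDAA. T and NK cell means were 4.88 to 5.14 in CDAA and 4.33 to 4.69 in Std, apart from Std 5 at 5.58. In both lists 7 of 8 estimates were above 0, so the lack of calls does not show equal levels. In such bulk samples, more cells of a type and more RNA per cell cannot be told apart. Fits with marker means as covariates are given below. Those means moved with the diet, so the part of the markers in the results that follow cannot be told apart from it.

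A minority of the nucleolar genes rose with CDAA, and none fell. Of 39 genes, 9 rose and 0 fell by limma, and 30 did not pass. Among all genes, 7.49% rose and 9.13% fell. At an unadjusted p of 0.05 the same test gave 15 higher and 1 lower, beside 3004 higher and 3990 lower of all 24704 genes. The shares over all genes include dim genes, whereas all 39 lay above the median signal. With genes below the median signal left out of the fit, 12 of the 39 rose and 0 fell, beside 1841 rises and 2500 falls among 12352 genes. The 9 that rose were Npm1, Nhp2, Nop58, Nop10, Gnl3, Ncl, Polr1a, Tsr1 and Wdr43, with changes of 0.39 to 0.91, or 1.31- to 1.87-fold. The median change of the 39 genes was 0.12, beside -0.02 over all genes, and 25 of 39 estimates were above 0 (64.1%), beside 46.3% of all genes. All 5 CDAA values lay above all 5 Std values for 8 of the 39, beside 6.16% of all genes, and all below for 0, beside 7.73%. By role, 3 of 3 multifunctional nucleolar proteins, 3 of 8 snoRNP genes, 1 of 4 RNA polymerase I genes, 2 of 12 small subunit genes and 0 of 12 large subunit genes rose; whether the roles differ was not tested.

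**Figure D1:**
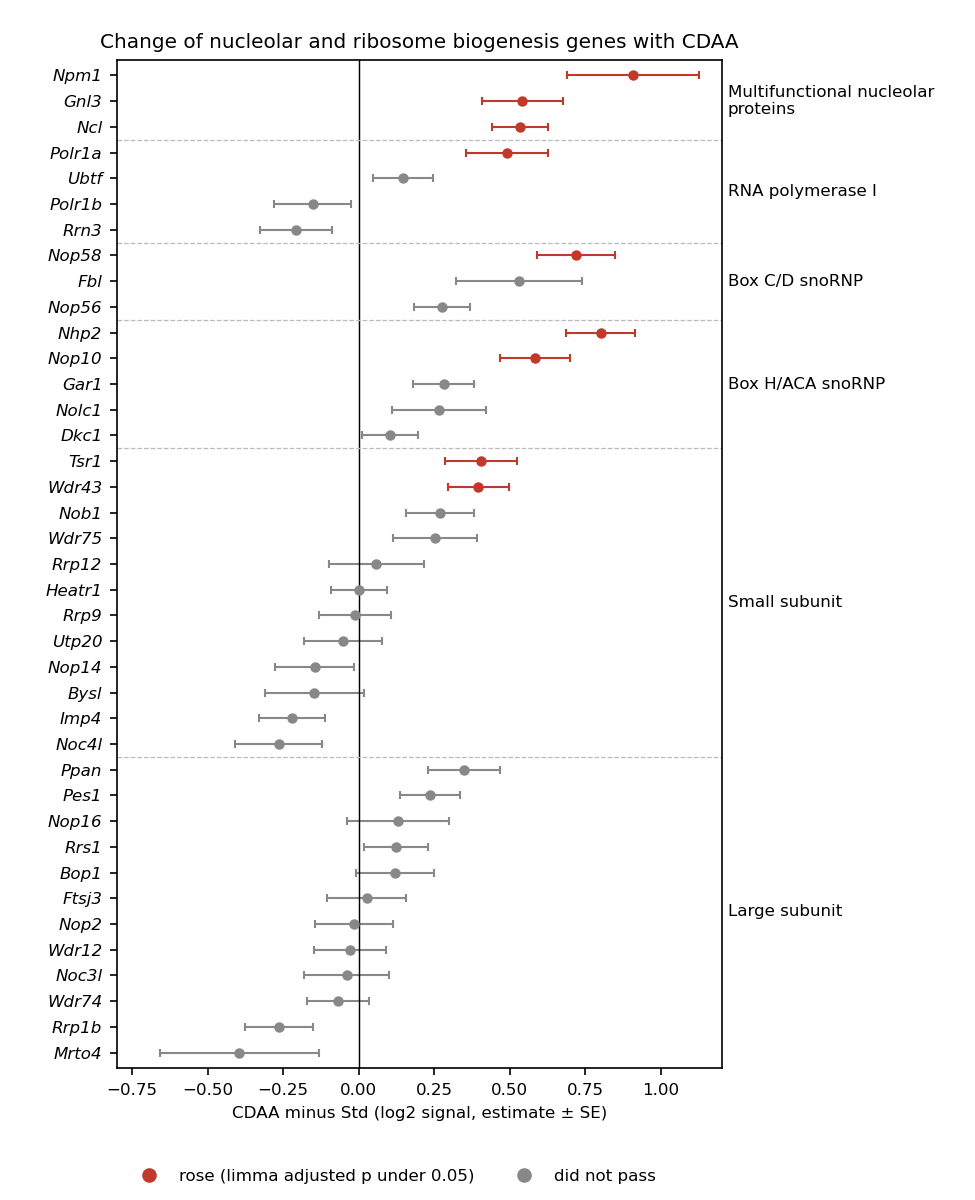
Change of each of the 39 genes with CDAA relative to Std, in log2 signal (estimate ± SE from limma, 5 pools per diet), grouped by role. Red points are the 9 genes that rose; grey points did not pass. The large subunit genes, at the bottom, spread around 0, between -0.40 and 0.35.

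The promoters of the nucleolar genes were searched for the letters to which MYC and MAX bind, in a window of 250 bases before to 50 bases after the start of each gene (RefSeq, GRCm38.p6). Of the 39 genes, 34 had such a window. CACGTG, which reads the same on both strands, was present for 7 of 34 (20.6%), beside 8.09% of 27025 genes in the table and 8.91% of 17492 protein-coding genes. It was present for 2 of 8 genes that rose, Wdr43 and Tsr1, and for 5 of 26 that did not pass, Rrn3, Imp4, Utp20, Pes1 and Nop2. Among 102 other ribosome biogenesis genes the share was 18 of 86 (20.9%), and among genes that rose or fell anywhere on the array it was 11.3% and 10.8%. The sites are shown in a window of 30 bases, 5′ to 3′ on the strand of the gene, with the motif in capitals, first for the genes that rose.

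Wdr43, chr17:71616220-71616249, plus strand: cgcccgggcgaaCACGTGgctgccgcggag
Tsr1, chr11:74898092-74898121, plus strand: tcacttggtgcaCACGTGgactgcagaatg
Pes1, chr11:3963965-3963994, plus strand: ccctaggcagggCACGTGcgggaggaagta
Utp20, chr10:88826765-88826794, minus strand: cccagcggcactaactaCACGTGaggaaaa
Nop2, chr6:125131811-125131840, plus strand: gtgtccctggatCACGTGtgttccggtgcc
Imp4, chr1:34439696-34439725, plus strand: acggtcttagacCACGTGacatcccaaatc
Rrn3 distal, chr16:13780472-13780501, plus strand: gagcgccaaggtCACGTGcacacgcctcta
Rrn3 proximal, chr16:13780639-13780668, plus strand: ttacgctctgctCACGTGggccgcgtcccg

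In Wdr43, Tsr1, Pes1 and Utp20 the motif began 18, 25, 3 and 38 bases into the transcript, whereas in Nop2 and Imp4 it began 60 and 121 bases before the start, and Rrn3 held it at 48 and 215 bases before the start. Counting only the 250 bases before the start left 3 of 34 genes (8.82%), beside 6.86% of all genes and 7.61% of protein-coding genes. None of the 3 was among those that rose. Adding the related letters CACGCG, on either strand, gave 14 of 34 (41.2%), beside 17.2% of all genes and 20.8% of protein-coding genes. That added Nhp2 and Nop10 among the genes that rose, and their sites follow, with CACGCG or its reverse complement in capitals.

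Nhp2, chr11:51619764-51619793, plus strand: ggaggcggcggcCGCGTGgttcctctatgc
Nop10, chr2:112261938-112261967, plus strand: aggttgttggcgCACGCGattgaagcggcg

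Nop58, Ncl, Gnl3 and Polr1a held none of these letters in the window, which says nothing about other stretches of these genes. The sequences before the starts of Nop58 and Nhp2, the pair with the largest rises among genes with a window, are shown to the edge of the annotated transcripts. Capitals mark CCGGAA or its reverse complement TTCCGG, the core letters bound by ETS factors, a motif picked after these sequences were seen. It occurred for 14 of 34 of the nucleolar genes (41.2%), 3 of 8 that rose and 11 of 26 that did not pass, beside 16.7% of all genes and 20.9% of protein-coding genes. The share was higher still among the other ribosome biogenesis genes, 55 of 86 (64.0%), and among cytosolic ribosomal protein genes, 21 of 43 (48.8%).

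Nop58, chr1:59684756-59684960, plus strand: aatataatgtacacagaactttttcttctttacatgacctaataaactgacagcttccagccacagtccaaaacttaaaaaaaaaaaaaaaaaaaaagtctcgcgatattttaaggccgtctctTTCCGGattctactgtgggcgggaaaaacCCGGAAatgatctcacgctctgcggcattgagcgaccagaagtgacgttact
Nhp2, chr11:51619523-51619772, plus strand: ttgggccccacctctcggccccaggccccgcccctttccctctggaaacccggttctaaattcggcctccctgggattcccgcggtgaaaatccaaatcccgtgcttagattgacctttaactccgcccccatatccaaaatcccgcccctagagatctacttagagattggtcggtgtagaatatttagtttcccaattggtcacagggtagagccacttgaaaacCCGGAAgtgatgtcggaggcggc

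Nop58 carried the letters on each strand, and Nhp2 carried them once, close to the start. The 250 bases before the start of Ncl, also looked at and not shown, carried none. Whether either motif differs between genes that rose and genes that did not was not tested; a match is a run of letters and not a measured binding site.

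All 3 measured genes of multifunctional nucleolar proteins rose, beside 7.49% of all genes. Npm1 encodes nucleophosmin, a histone chaperone that also helps to export ribosomal subunits from the nucleus. Its log2 signal was 5.60, 5.88, 5.25, 5.67 and 6.39 in CDAA 1 to 5, against 5.03, 5.28, 4.67, 4.99 and 4.30 in Std 1 to 5. CDAA 5 was the highest and Std 5 the lowest array, and CDAA 3 lay just below Std 2, so the diets overlapped by that pair. Npm1 rose by 0.91 ± 0.22 (SE, limma adjusted p = 0.0138), the largest change among the 39 genes, and also the one with the widest spread among the 9, with SDs of 0.42 in CDAA and 0.38 in Std (n = 5 each). Npm1 has near-identical pseudogene copies in the mouse genome, and its probes can also bind transcripts of such copies, so its signal is uncertain.

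Ncl encodes nucleolin, which binds the ribosomal RNA precursor. Its signal was 8.99, 8.97, 8.97, 8.79 and 9.12 in CDAA pools, against 8.53, 8.52, 8.28, 8.45 and 8.38 in Std pools, with no overlap and little spread on either diet. Ncl rose by 0.53 ± 0.09 (SE, limma adjusted p = 0.0023). Gnl3 encodes nucleostemin, a nucleolar GTPase of dividing and stem cells. It stood at 6.75, 6.91, 6.74, 6.73 and 7.16 in CDAA, against 6.05, 6.59, 6.12, 6.25 and 6.57 in Std. The lowest CDAA value lay only slightly above Std 2 and Std 5. The rise of Gnl3 was 0.54 ± 0.13 (SE, limma adjusted p = 0.0163).

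Among snoRNP genes, 1 of 3 core proteins of the box C/D particles and 2 of 5 genes of the box H/ACA particles rose, beside 7.49% of all genes. All 8 estimates were above 0, beside 46.3% of all genes. Nop58, a scaffold of the box C/D particles that guide ribosomal RNA methylation, had a signal of 8.27, 8.01, 8.17, 7.83 and 7.99 in CDAA, against 7.47, 7.59, 6.99, 7.21 and 7.43 in Std. Every CDAA pool was above every Std pool, and the rise was 0.72 ± 0.13 (SE, limma adjusted p = 0.0029). Its partner scaffold Nop56 was at 7.55, 7.42, 7.41, 7.33 and 7.40 in CDAA, against 7.37, 7.14, 7.00, 7.10 and 7.12 in Std. Std 1 alone reached into the CDAA range. The difference for Nop56 was 0.28 ± 0.09 (limma adjusted p = 0.0629). It passed without Std 1 (0.33, limma adjusted p = 0.0372) and with genes below the median signal left out of the fit (limma adjusted p = 0.0394).

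Fbl, the methyltransferase fibrillarin of the same particles, had a difference of 0.53 ± 0.21 (limma adjusted p = 0.11), short of the threshold. Its signal was 7.37, 6.62, 7.51, 6.71 and 6.69 in CDAA, against 6.71, 6.55, 6.50, 5.88 and 6.62 in Std. CDAA 1 and CDAA 3, the pools with the highest macrophage marker means, stood above the other CDAA pools, Std 4 stood below the other Std pools, and without both the difference was 0.22. Without those pools Nop58 and Nhp2 still rose, by 0.61 and 0.67.

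Nhp2 is a core protein of the box H/ACA particles, which guide pseudouridylation of ribosomal RNA and also stabilise telomerase RNA. Its signal was 7.66, 7.24, 7.50, 7.30 and 7.19 in CDAA, against 6.55, 6.75, 6.41, 6.51 and 6.68 in Std. The gap between the lowest CDAA and the highest Std pool was nearly as wide as the spread among the CDAA pools. Nhp2 rose by 0.80 ± 0.11 (SE, limma adjusted p = 0.000698), the smallest p of the 39. Nop10, a small protein of the same core, was at 9.90, 9.73, 9.98, 9.62 and 9.96 in CDAA, against 9.19, 9.50, 9.16, 9.01 and 9.41 in Std. It too had no overlap, and rose by 0.58 ± 0.12 (SE, limma adjusted p = 0.00527).

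The other box H/ACA genes did not pass. Gar1, the core protein that helps the enzyme turn over, lay in every CDAA pool above every Std pool (6.14 to 6.46 in CDAA, 5.82 to 6.12 in Std), with a difference of 0.28 ± 0.10 (limma adjusted p = 0.0787, and 0.0499 with genes below the median signal left out). Dkc1, the pseudouridine synthase dyskerin itself, differed by 0.10 ± 0.09 (limma adjusted p = 0.531). Nolc1, a chaperone of snoRNPs, was at 7.08, 7.03, 7.10, 7.24 and 7.22 in CDAA, against 7.47, 6.82, 6.68, 6.50 and 6.88 in Std. Std 1 was the highest of all 10 arrays. The difference for Nolc1 was 0.27 ± 0.15 (limma adjusted p = 0.3). It passed without Std 1 (0.41, limma adjusted p = 0.0297).

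**Figure D2:**
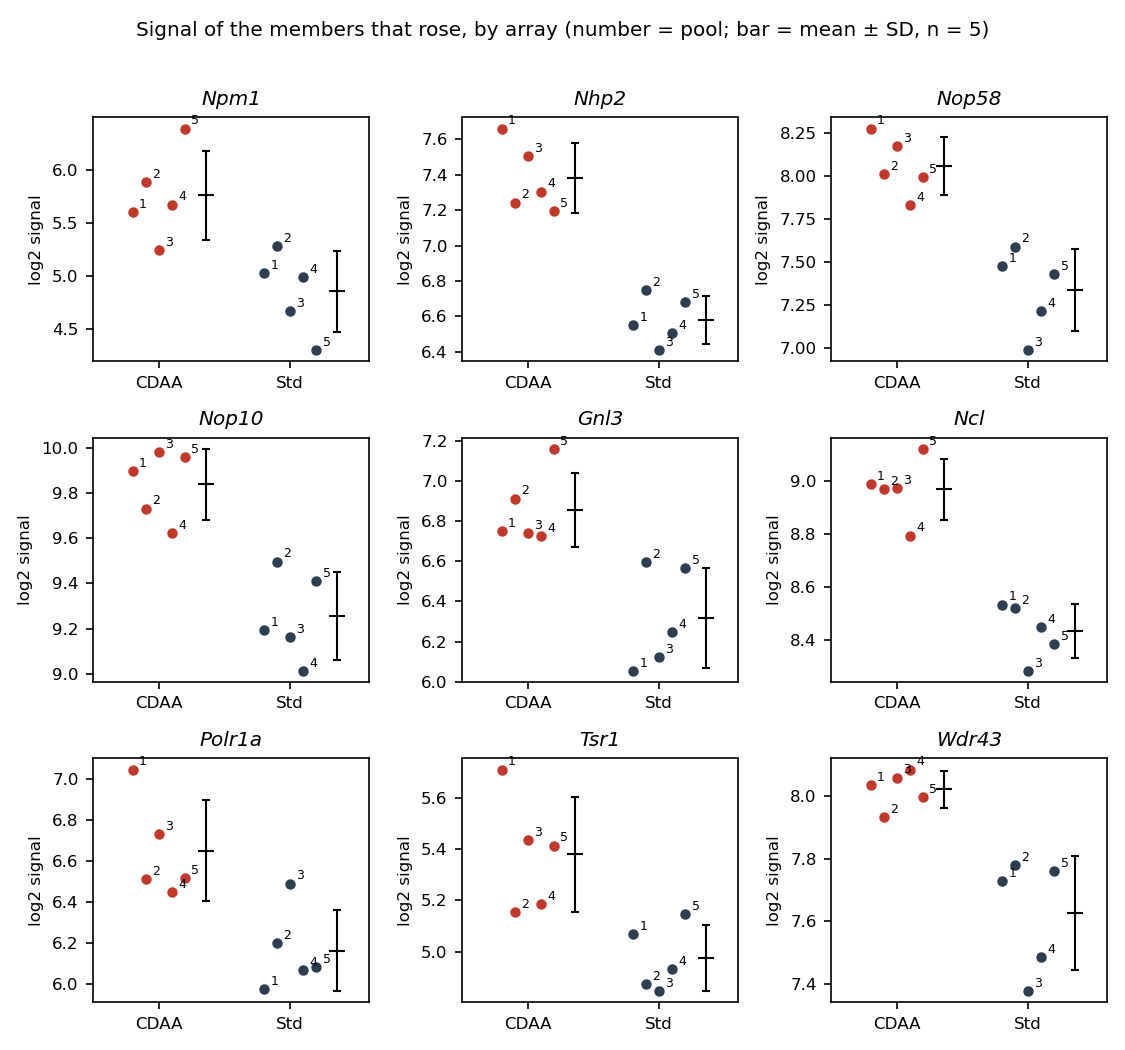
Log2 signal of the 9 genes that rose, with CDAA pools in red on the left and Std pools in dark blue on the right of each panel. Numbers give the pool, and the bars give mean ± SD (n = 5). The diets overlap only for Npm1 and Polr1a.

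RNA polymerase I genes were mixed. Polr1a encodes the largest catalytic subunit of the enzyme. Its signal was 7.05, 6.51, 6.73, 6.45 and 6.52 in CDAA, against 5.97, 6.20, 6.49, 6.07 and 6.08 in Std. CDAA 1 was the highest pool, and CDAA 4 lay just below Std 3. Polr1a rose by 0.49 ± 0.14 (SE, limma adjusted p = 0.028), but did not pass without CDAA 1 (0.39), CDAA 3 (0.47), Std 1 (0.44), Std 4 (0.47) or Std 5 (0.47).

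The other 3 genes of this step did not pass. Polr1b, the subunit that forms the active site with Polr1a, differed by -0.15 ± 0.13. Rrn3, which recruits the polymerase to its promoter, differed by -0.21 ± 0.12, with CDAA 1 the lowest pool at 6.35 and all Std pools between 6.91 and 7.02. Ubtf, the factor that opens ribosomal DNA chromatin, differed by 0.15 ± 0.10.

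Of 12 genes for processing and maturation of the small subunit, 2 rose (16.7%), beside 7.49% of all genes. With genes below the median signal left out of the fit, 1841 of 12352 genes rose. Wdr43, whose CACGTG site is shown above and whose product joins the processome on the emerging precursor, had the narrowest CDAA spread of the 9 genes that rose, with 8.03, 7.93, 8.06, 8.08 and 8.0 in CDAA, against 7.73, 7.78, 7.38, 7.49 and 7.76 in Std. There was no overlap. Wdr43 rose by 0.39 ± 0.10 (SE, limma adjusted p = 0.0187), and did not pass without Std 4 (0.36, limma adjusted p = 0.0558) or without CDAA 1 and CDAA 3 together (0.38, limma adjusted p = 0.0763).

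Tsr1, which acts late on the small subunit precursor, was at 5.71, 5.15, 5.43, 5.19 and 5.41 in CDAA, against 5.07, 4.88, 4.85, 4.93 and 5.15 in Std. CDAA 2 lay barely above Std 5. Tsr1 rose by 0.41 ± 0.12 (SE, limma adjusted p = 0.0353), the weakest of the 9 calls. It passed in 3 of 10 fits that left out a single pool, where its change lay between 0.32 and 0.46: it did not pass without CDAA 1, CDAA 3, CDAA 5, Std 1, Std 2, Std 3 or Std 4. With all arrays it also missed the threshold under an intensity trend with robust variance (0.41, limma adjusted p = 0.0617) and under array weights (0.34, limma adjusted p = 0.0567).

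The other small subunit genes did not pass. Estimates were above 0 for Nob1, the endonuclease that trims the end of the small subunit RNA (0.27), for the processome protein Wdr75 (0.25), and for Rrp12 (0.06). Heatr1 was at 0.00, with a sign that turned when arrays were centred on their medians. They were below 0 for Rrp9, a snoRNP protein (-0.01), Utp20 (-0.05), Nop14 (-0.15), Bysl (-0.15), Imp4 (-0.22) and Noc4l (-0.26). For Bysl, which encodes bystin, CDAA 3 was the lowest pool at 5.17, with the other CDAA pools at 5.72 to 6.19 and Std at 5.87 to 6.05. The median change of the 12 genes was -0.01.

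None of the 12 large subunit genes passed by limma in either direction. At an unadjusted p of 0.05, 2 were higher and 1 lower, beside 3004 and 3990 of all 24704 genes. Ppan, needed for maturation of the large subunit RNA, was nearest to the threshold, with 5.88, 5.87, 5.81, 5.41 and 6.13 in CDAA, against 5.47, 5.48, 5.40, 5.53 and 5.50 in Std. Only CDAA 4 lay within the Std range. Ppan differed by 0.35 ± 0.12 (limma adjusted p = 0.0704), and passed without CDAA 4 (0.45, limma adjusted p = 0.00763) and with genes below the median signal left out (limma adjusted p = 0.0455). The 3 proteins of the PeBoW complex, which processes the large subunit precursor, had small estimates: 0.23 for Pes1, 0.12 for Bop1 and -0.03 for Wdr12.

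Estimates for the other large subunit genes were 0.13 for Nop16, 0.12 for Rrs1, 0.03 for the methyltransferase Ftsj3, -0.02 for Nop2, an RNA cytosine methyltransferase, -0.04 for Noc3l, -0.07 for Wdr74 and -0.27 for Rrp1b. Mrto4, which holds the place of a stalk protein on the immature subunit, had the lowest estimate of the 39 genes, -0.40 ± 0.26 (limma adjusted p = 0.374). Its signal ranged from 4.83 in CDAA 1 to 6.15 in CDAA 2, and Std 3 was at 6.73 with the other Std pools at 5.56 to 5.79. The median change of the 12 genes was 0.01.

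**Figure D3:**
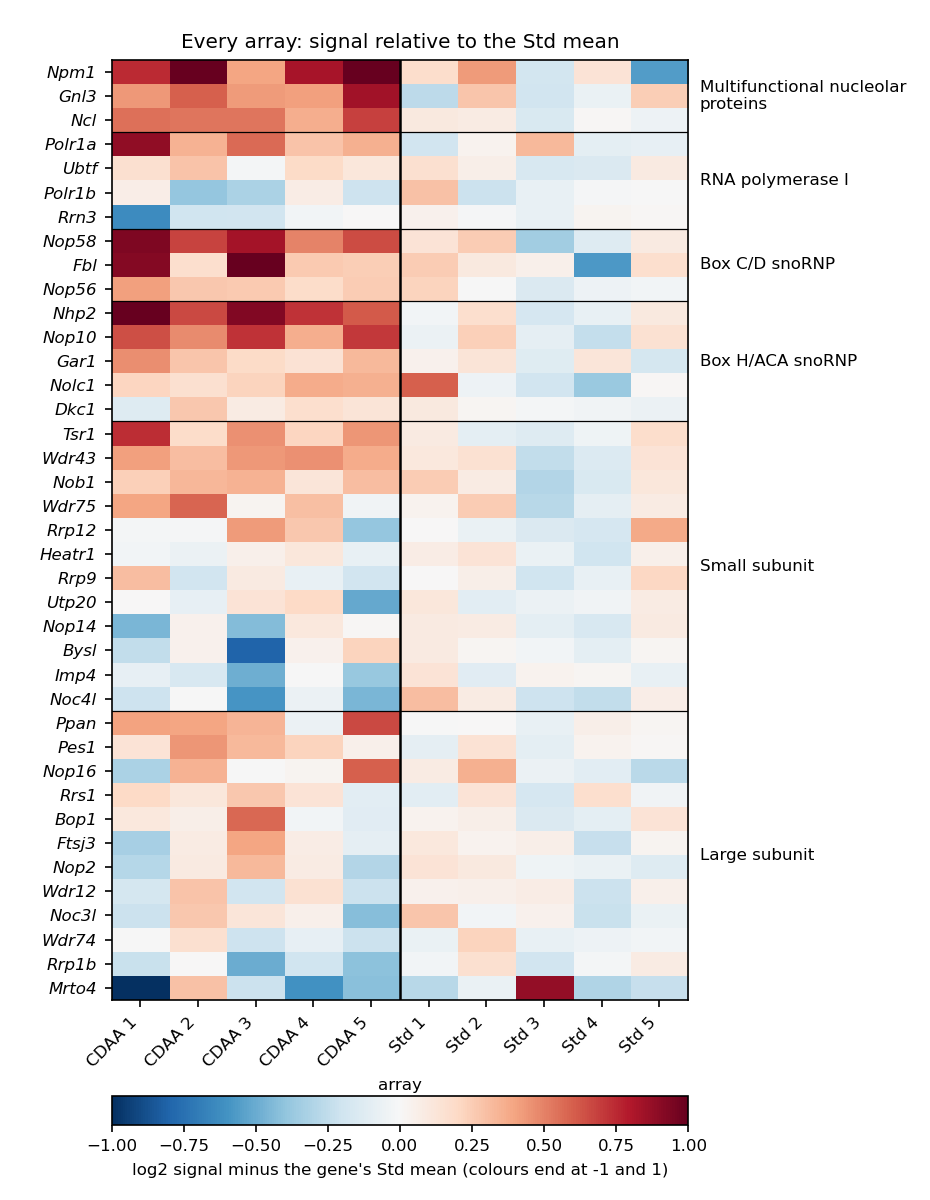
Log2 signal of each gene on each array minus the mean of the 5 Std arrays for that gene, with CDAA arrays left of the line and Std arrays right of it. Nhp2, Nop58 and Ncl are red in every CDAA array. Fbl is darkest in CDAA 1 and CDAA 3, and Mrto4 is dark blue in CDAA 1 and dark red in Std 3.

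No single CDAA pool led the group. The number of genes whose highest CDAA value lay in a given pool was 7, 10, 8, 7 and 7 for CDAA 1 to 5, and the mean of the 39 genes was 6.50 to 6.60 in CDAA arrays and 6.28 to 6.46 in Std arrays. Std 3 and Std 4 held the lowest Std value for 17 and 12 genes. The SD was larger in CDAA than in Std for 27 of 39 genes, beside 64.8% of all genes. Among the 9 genes that rose, CDAA 1 was the highest CDAA pool for 4, CDAA 5 for 3, and CDAA 3 and CDAA 4 for 1 each. CDAA 4 was the lowest CDAA pool for 5 of them, CDAA 2 for 2, and CDAA 3 and CDAA 5 for 1 each. The 9 genes lay above their Std mean by a mean of 0.71, 0.53, 0.59, 0.46 and 0.69 in CDAA 1 to 5. CDAA 4 also held the lowest macrophage (8.26) and bile duct means (7.31) and the highest pan-endothelial mean (11.14) among CDAA pools. A link between these values was not tested.

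Of 102 measured ribosome biogenesis genes outside the 39, 9 rose and 3 fell, 8.82% and 2.94%, beside 7.49% and 9.13% of all genes, with a median change of 0.03. Only 2 of the 102 had a Std mean below the array median, so the shares over all genes, dim ones included, are an unlike background. In the fit with genes below the median signal left out, 1841 of 12352 genes rose and 2500 fell. Of 11 further genes of RNA polymerase I transcription, 2 rose: Taf1d, a subunit of the promoter selectivity factor, by 0.76 ± 0.13, and Polr1c, a subunit shared with RNA polymerase III, by 0.76 ± 0.11 (SE, limma adjusted p = 0.00217 and 0.000938). None of 43 further small subunit genes passed by limma. At an unadjusted p of 0.05, 5 were higher and 3 lower, beside 3004 and 3990 of all 24704 genes. Wdr46 was nearest to the threshold, at -0.38 ± 0.13 (limma adjusted p = 0.0558).

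Of 48 further large subunit genes, 7 rose and 3 fell (14.6% and 6.25%), beside 7.49% and 9.13% of all genes. With genes below the median signal left out of the fit, 1841 of 12352 genes rose and 2500 fell. Noc2l, a partner of Noc3l, rose by 0.50 ± 0.12 (limma adjusted p = 0.013). Urb2 fell by 1.14, a larger change than that of any other biogenesis gene measured, with a signal of 6.59, 7.51, 6.40, 7.15 and 6.73 in CDAA, against 8.02, 7.83, 7.89, 8.39 and 7.93 in Std (limma adjusted p = 0.00229). Urb1 fell by 0.58 (limma adjusted p = 0.0101), and Surf6 by 0.43. In yeast the products of URB1 and URB2 act together early in the assembly of the large subunit. Every CDAA pool lay below every Std pool for Urb2, and CDAA 2 overlapped Std 3 for Urb1.

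Of 78 listed cytosolic ribosomal protein genes, whose products the pathway assembles, 55 were measured and 23 were not. By limma 9 rose and 0 fell (16.4% and 0%), beside 7.49% and 9.13% of all genes. At an unadjusted p of 0.05, 13 were higher and 1 lower, beside 3004 and 3990 of all 24704 genes. The median change was 0.16. The largest rises were of Rps9, by 0.82 ± 0.10 (SE, limma adjusted p = 0.000224), Rpl17, by 0.72 ± 0.22 with 1 low array, Std 5, and Rpl7, by 0.71 ± 0.20. The count was 5 without Std 1. Of these 55 probe sets, 27 had a Std mean below the array median, and ribosomal protein genes have many near-identical pseudogenes, so their signals are uncertain.

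**Figure D4:**
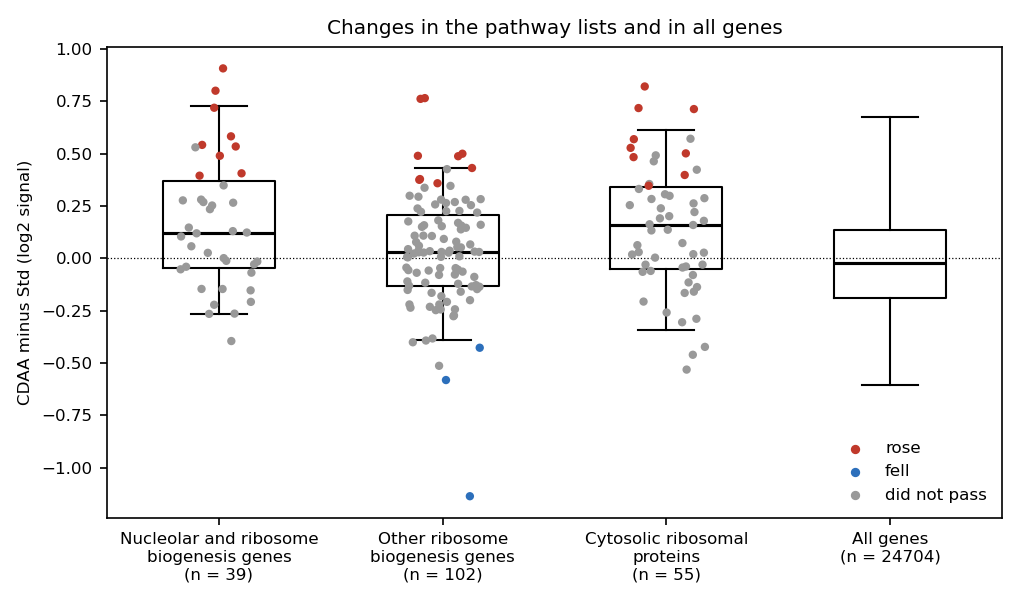
Change with CDAA relative to Std, in log2 signal, for the 39 nucleolar and ribosome biogenesis genes, 102 other ribosome biogenesis genes, 55 cytosolic ribosomal protein genes and all 24704 genes. Boxes span the 25th to 75th percentile with the median as a line, whiskers run from the 5th to the 95th percentile, and points are single genes. Medians are 0.12, 0.03, 0.16 and -0.02, and the lowest blue point is Urb2.

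Myc rose more than any of the 39 nucleolar genes. Its signal was 8.31, 7.94, 7.99, 7.69 and 8.20 in CDAA, against 6.13, 5.88, 6.42, 6.05 and 6.04 in Std, a rise of 1.92 ± 0.13 (SE, limma adjusted p = 1.12e-05). The diets did not overlap. Of 22 MYC target genes outside the nucleolus, 6 rose (27.3%), beside 7.49% of all genes. In the fit with genes below the median signal left out, 1841 of 12352 genes rose. The largest rises were of the transferrin receptor Tfrc, by 0.93 ± 0.20, the mitochondrial chaperonin Hspd1, by 0.72 ± 0.16, and the folate enzyme Mthfd2, by 0.72 ± 0.19. The cyclin Ccnd2 fell, by 0.65. Of 11 genes of MYC and its partners, Myc alone rose and 0 fell; the other 10 had an unadjusted p above 0.05.

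Of 15 cell cycle genes 9 rose and 1 fell, beside 7.49% and 9.13% of all genes. Among those that rose were Top2a, by 0.96 ± 0.23, Mki67, by 0.95 ± 0.22, and Mcm7, a helicase subunit for DNA replication, by 0.71 ± 0.12 (SE, limma adjusted p = 0.0148, 0.0114 and 0.00167). Mcm3 was the only one to fall, by 0.48. Their list mean was 6.48 to 6.88 in CDAA and 6.01 to 6.52 in Std. Failed ribosome assembly is known to activate p53. Of 11 measured p53 target genes, 1 rose and 3 fell, beside 7.49% and 9.13% of all genes. Trp53inp1 rose by 0.47, and Zmat3 fell by 0.67, the stress protein Sesn2 by 0.65 and the receptor Eda2r by 0.54. The list median was -0.26.

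Without CDAA 1 and CDAA 3, 6 of the 9 genes still rose: Npm1 (1.13), Nhp2 (0.67), Gnl3 (0.62), Nop58 (0.61), Ncl (0.53) and Nop10 (0.52). Leaving out Std 3 as well gave 5 rises, of Npm1, Nhp2, Nop58, Ncl and Polr1a; Gnl3 (0.57, limma adjusted p = 0.0531) and Nop10 (0.49, limma adjusted p = 0.057) then missed the threshold. With the pan-endothelial marker mean of each array as a covariate, none of the 39 passed by limma (6 were higher and 0 lower at an unadjusted p of 0.05), while Myc did (1.72, limma adjusted p = 0.00598). With the recruited macrophage mean instead, neither any of the 39 (3 higher and 1 lower at an unadjusted p of 0.05) nor Myc (0.98, limma adjusted p = 0.37) passed. The same held with the bile duct mean, for the 39 (1 higher and 0 lower at an unadjusted p of 0.05) and for Myc (0.78, limma adjusted p = 0.96). All 3 covariates moved with the diet, and over all genes they left 158 rises and 70 falls, 15 rises and 71 falls, and 0 of either. The estimates with the pan-endothelial covariate were 1.38 for Npm1, 0.60 for Gnl3, 0.56 for Nhp2, 0.49 for Nop58, 0.48 for Ncl, 0.37 for Wdr43, 0.34 for Nop10, 0.17 for Polr1a and 0.16 for Tsr1. Diet and the cell makeup of the isolates cannot be told apart with these arrays.

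**Figure D5:**
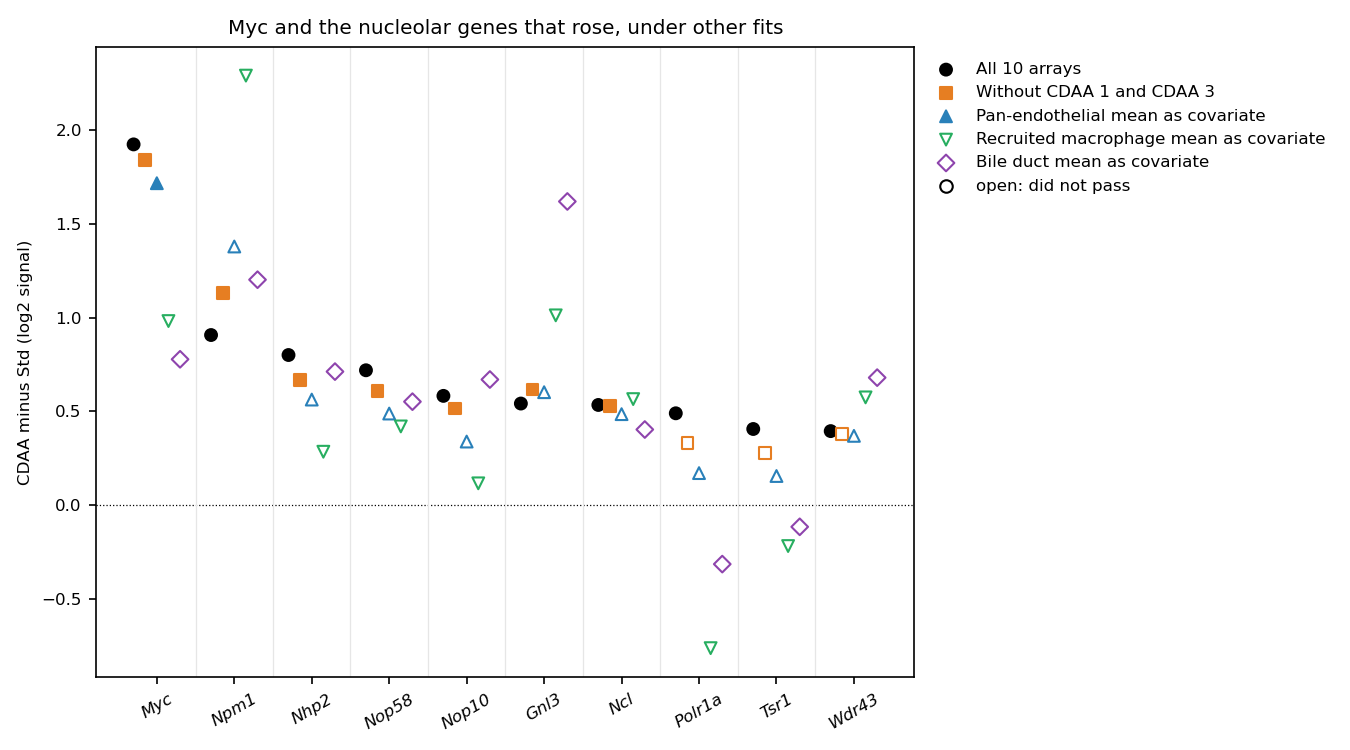
CDAA minus Std difference in log2 signal of Myc and the 9 nucleolar genes that rose, with all 10 arrays, without CDAA 1 and CDAA 3, and with the pan-endothelial, recruited macrophage or bile duct marker mean as a covariate. Filled points passed a limma adjusted p of 0.05 and open points did not; with the pan-endothelial covariate only Myc is filled, with the other covariates no point is, and Polr1a, Tsr1 and Wdr43 are open without CDAA 1 and CDAA 3.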

How the data were processed

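The deposited values are log2 signals from RMA, per the submitters' processing notes; the version and genome build are not given in the sources used here. RMA corrects background, brings arrays to one distribution, so that shifts shared by most genes are lost, and summarises probes. Sorted values of the arrays agreed within 0.00186. GEO's platform annotation gave a single gene symbol to 24705 of 25428 probe sets, several to 0 and none to 723. For 1 gene with several, the probe set with the highest mean was kept. CDAA was compared with Std with limma 3.58.1 (lmFit, eBayes; R 4.3.3) and Benjamini-Hochberg adjustment over 24704 genes; numbers of arrays limit the precision, and no array was dropped. The labels call the pools biological replicates, and p-values measure the spread between pools. Alternatives were a replicate block, renormalization, centring, filters on dim genes, variance and array weighting, covariates from marker lists and left-out arrays. Leaving out Std 3 beside CDAA 1 and CDAA 3, adding CACGCG and searching CCGGAA were chosen after seeing the data. The genes and lists were chosen with earlier results of these data known. By rule all 39 genes are named, with values for each array for those that rose or whose call turned on 1 array; Fbl, Bysl, Gar1, Rrn3, Mrto4, Urb2 and the remaining single falls or rises were added after seeing values. In other lists up to 3 of the largest changes are named. On simulated data with 200 of 24704 genes changed, the share of true changes found was 10% at a log2 change of 0.5, 89% at 1 and 100% at 2, with 0, 9 and 15 false calls. The data themselves held 4106 calls (16.6%). With fewer changed genes the adjusted threshold is stricter, so these shares do not give the share found in the data. Promoter sequences are from RefSeq (GRCm38.p6).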

Additional observations from a re-analysis of the deposited data

Results flagged for a closer look

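An array was looked at again when it lay apart from the rest of its diet by more than 0.71 of the range of the 5 arrays (Dixon's critical value). Of 116 groups of 5 arrays, 7 did so, where chance alone gives about 1 in 20 (5.8). Std 4 was low for 3 nucleolar genes: Fbl at 5.88, with 6.50 to 6.71 in the other Std arrays, Wdr12 at 4.09, with 4.34 to 4.38, and Ftsj3 at 6.22, with 6.47 to 6.55. Wdr74 was high in Std 2 at 7.44, with 7.14 to 7.19 in the others, and Mrto4 was high in Std 3 at 6.73, with 5.56 to 5.79. None of these 5 genes passed the comparison of the diets. Outside the nucleolar genes, Rpl17 was low in Std 5 at 2.26, with 3.19 to 3.58 in the other Std arrays, and Zmat3 was low in CDAA 1 at 4.76, with 5.57 to 5.69 in the other CDAA arrays.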

How the results depend on the processing

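Counts below are of limma calls. Across 23 other settings, 9 rises of the nucleolar genes became 6 to 10 with 1 array left out, 12 with genes below the median signal left out (Gar1, Nop56 and Ppan added), 8 under an intensity trend with robust variance and 8 under array weights (Tsr1 lost in both), 5 without CDAA 1, CDAA 3 and Std 3, and 0 with the pan-endothelial, the recruited macrophage or the bile duct mean as a covariate, and no fall was called under any of them. The other biogenesis genes gave 9 rises and 3 falls: 4 rises without CDAA 1 and CDAA 3, with 1 fall, and 4 without Std 3 as well; with the pan-endothelial covariate 1 rise and 0 falls, and with the macrophage or bile duct covariate 0 and 0. With 1 array left out their rises numbered 6 to 11 and their falls 2 to 4. Ribosomal protein rises, 9 with all arrays, were 5 (without Std 1) to 10 with 1 array left out and 0 with each covariate, and 1 fall was called without CDAA 1, CDAA 3 and Std 3. Myc did not pass with the macrophage (0.98) or bile duct covariate (0.78), which over all genes left 15 rises and 71 falls, and 0 of either; both covariates moved with the diet. The number of promoters with CACGTG, 7, was 3 before the start only and 14 with CACGCG added.

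Whether equal replicate numbers pair the pools was not settled. Deviations from the group means correlated by 0.0164 to 0.249 between pools of the same number, under 0.1 for 2 of 5. Of the CDAA pools, 3 of 5 correlated best with the Std pool of their own number. With the replicate number as a block, 9 nucleolar genes rose and 0 fell, and the other biogenesis genes gave 7 rises.

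Of 897 values of single nucleolar genes under other settings, 770 kept direction and side of the threshold, 45 no longer passed, 6 newly passed and 76 changed sign, 4 of these for genes that had risen (Polr1a and Tsr1, without passing). With the macrophage covariate the signs turned for Polr1a (-0.76), Rrn3 (0.56), Fbl (-1.42), Nop14 (1.07), Noc4l (0.62), Imp4 (0.18), Rrp12 (-0.26), Bysl (1.32), Tsr1 (-0.22), Bop1 (-0.64), Wdr12 (0.52), Wdr74 (0.21), Rrp1b (0.41) and Ftsj3 (-0.20). With the bile duct covariate they turned for Polr1a (-0.31), Rrn3 (0.48), Fbl (-0.89), Nop56 (-0.19), Nolc1 (-0.38), Nop14 (0.65), Bysl (0.44), Tsr1 (-0.12), Bop1 (-0.075), Wdr12 (0.22), Wdr74 (0.18) and Rrp1b (0.25). With the pan-endothelial covariate they turned for Fbl (-0.18), Heatr1 (-0.011), Nop14 (0.27), Noc4l (0.071), Imp4 (0.017), Rrp12 (-0.15), Bysl (0.45), Bop1 (-0.27), Wdr12 (0.23), Wdr74 (0.034) and Ftsj3 (-0.12). Without CDAA 1 and CDAA 3 they turned for Heatr1 (-0.0063), Nop14 (0.051), Rrp12 (-0.040), Bysl (0.10), Bop1 (-0.027) and Wdr12 (0.074), and without Std 3 as well these were -0.023, 0.027, -0.077, 0.097, -0.063 and 0.093. Centring turned Heatr1 (-0.00039), and array weights turned Wdr12 (0.082) and Noc3l (0.019). With 1 array left out, signs turned within the ranges -0.092 to 0.039 for Rrp9, -0.12 to 0.063 for Utp20, -0.048 to 0.035 for Heatr1, -0.036 to 0.17 for Rrp12, -0.24 to 0.017 for Bysl, -0.11 to 0.018 for Wdr12, -0.10 to 0.054 for Nop2, -0.12 to 0.056 for Noc3l and -0.067 to 0.12 for Ftsj3. The cause of these turns was not tested.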
